A study of Mus musculus with 2 samples.

Results

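The genes that break glucose down to lactate and those that cells switch on when oxygen is short were followed through the cell types of the mouse lower incisor, in a control mouse and in a mouse bred to lose Memo1 in its epithelium. There were 31 genes, of 19626 in the deposited matrix. They comprised 14 glycolytic enzymes, 4 transporters of glucose or lactate and 13 hypoxia-responsive genes. The genes were picked by symbol for their known place in these pathways, and all 31 were in the matrix. Each group was a single mouse at postnatal day 20 and a single droplet library. The control carries no further description in the labels, and the other mouse is labelled Memo1;K14CRE, a Cre recombinase driven by the keratin 14 promoter, which is active in epithelial cells. The labels do not give the Memo1 allele or the sex of either mouse. Tissue around the cervical loop, the stem cell region at the growing end of the incisor, was taken from the lower jaw with its epithelium and mesenchyme, digested with trypsin and dispase, and sequenced from the 3′ end of the transcripts.

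Glycolysis splits glucose in the cytosol and ends in pyruvate, which enters mitochondria or is reduced to lactate. Several of its steps have more than 1 isoenzyme, and tissues differ in which they use. When oxygen is scarce the prolyl hydroxylases that mark hypoxia-inducible factor (HIF) for destruction slow down, and HIF then binds short sequences in its target genes, among them most glycolytic enzymes, glucose and lactate transporters, and genes for blood vessel growth, mitochondrial turnover and collagen modification. In the incisor, ameloblasts first secrete enamel matrix and later move ions and remove that matrix, beside a layer of papillary cells that is richly supplied with vessels.

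Promoter windows are shown for 6 members whose values the comparisons below turn on: Pgk1, Ddit4, the lactate dehydrogenase pair Ldha and Ldhb, and the mitochondrial proteins Higd1a and Bnip3. The windows come from RefSeq on build GRCm38.p6 and run from 250 bases before to 50 bases after an annotated transcription start, 5′ to 3′ on the gene's own strand. Capitals mark every match to the HIF core letters ACGTG or GCGTG on either strand. The 2 motifs share bases where they overlap.
Pgk1, chrX:106186850-106187149 (plus strand): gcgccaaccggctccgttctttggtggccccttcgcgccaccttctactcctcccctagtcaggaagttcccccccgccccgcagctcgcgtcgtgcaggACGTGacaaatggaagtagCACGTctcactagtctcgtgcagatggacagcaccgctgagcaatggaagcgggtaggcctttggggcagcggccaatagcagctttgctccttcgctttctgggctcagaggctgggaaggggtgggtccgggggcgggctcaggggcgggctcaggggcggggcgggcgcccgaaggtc
Ddit4, chr10:59951721-59952020 (minus strand): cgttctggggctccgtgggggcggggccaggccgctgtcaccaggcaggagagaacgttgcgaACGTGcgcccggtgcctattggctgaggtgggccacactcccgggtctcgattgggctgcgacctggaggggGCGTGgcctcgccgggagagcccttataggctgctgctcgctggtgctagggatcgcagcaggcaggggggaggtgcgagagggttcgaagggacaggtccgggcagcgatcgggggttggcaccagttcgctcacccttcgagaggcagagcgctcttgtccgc
Ldha, chr7:46845554-46845853 (plus strand): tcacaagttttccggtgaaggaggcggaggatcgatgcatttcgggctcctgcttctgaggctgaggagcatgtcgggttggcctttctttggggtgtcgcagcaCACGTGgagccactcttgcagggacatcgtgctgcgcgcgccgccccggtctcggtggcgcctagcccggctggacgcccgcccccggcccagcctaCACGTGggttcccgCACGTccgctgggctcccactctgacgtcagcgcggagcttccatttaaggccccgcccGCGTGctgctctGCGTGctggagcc
Ldhb, chr6:142507908-142508207 (minus strand): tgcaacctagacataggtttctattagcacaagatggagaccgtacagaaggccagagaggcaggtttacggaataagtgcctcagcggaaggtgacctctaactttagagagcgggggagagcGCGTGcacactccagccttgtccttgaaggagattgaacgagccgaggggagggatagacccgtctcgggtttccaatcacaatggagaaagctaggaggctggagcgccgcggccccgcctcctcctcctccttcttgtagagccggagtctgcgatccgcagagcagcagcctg
Higd1a, chr9:121857747-121858046 (minus strand): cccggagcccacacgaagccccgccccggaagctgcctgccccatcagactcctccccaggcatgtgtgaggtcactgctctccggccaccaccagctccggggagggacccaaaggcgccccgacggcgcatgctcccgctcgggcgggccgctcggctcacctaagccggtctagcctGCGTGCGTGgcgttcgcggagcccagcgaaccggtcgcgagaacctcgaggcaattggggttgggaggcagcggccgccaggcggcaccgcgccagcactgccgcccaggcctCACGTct
Bnip3, chr7:138909457-138909756 (minus strand): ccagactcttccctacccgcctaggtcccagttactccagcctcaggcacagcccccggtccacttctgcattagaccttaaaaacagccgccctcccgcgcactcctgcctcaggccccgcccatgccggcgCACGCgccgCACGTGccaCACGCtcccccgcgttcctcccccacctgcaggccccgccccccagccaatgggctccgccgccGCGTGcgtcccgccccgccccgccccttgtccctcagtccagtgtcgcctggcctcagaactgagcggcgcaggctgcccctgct

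The Pgk1 window held 2 matches to ACGTG and 0 to GCGTG, and the Ddit4 window 1 of each. The first of 2 Ldha windows held 5 matches to ACGTG and 2 to GCGTG, against 0 and 1 in the Ldhb window. Higd1a had 1 and 2 matches and Bnip3 had 2 and 3. RefSeq windows were found for 29 of the 31 members, all but Slc2a3 and Ndrg1, and 27 of the 29 held at least 1 of the motifs in some window. Of the members' 38 windows, 31 (81.6%) held a match, against 43.8% of all 32851 windows of 300 bases, 19.6% with ACGTG and 32.4% with GCGTG. The windows were not matched for base composition. A match to these letters is a description of the sequence only, and the Gpi1 and Tpi1 windows, which held 0 matches, say nothing of HIF binding elsewhere.

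The matrix held 23528 cells with the submitters' cluster numbers, 9708 from the control (79518656 unique molecule counts) and 13820 from the mutant (120862385 counts). The submitters' ameloblast-lineage clusters, numbered 0 to 8, held 2981 control and 2303 mutant cells, and 21 other clusters held the rest. By its markers, lineage cluster 3 was secretory ameloblast-like, cluster 7 maturation ameloblast-like, cluster 4 preameloblast-like, cluster 5 stratum intermedium- or papillary-like and cluster 1 outer enamel epithelium- or stellate reticulum-like. Clusters 0, 2 and 6 are called by number, and cluster 8 (91 cells) came from the mutant alone. Within each library the counts of a cluster were added up over its cells and scaled to a total of 1000000 (CPM). A gene was measured in a cluster when its mean was at least 10 CPM with at least 50 counts over both libraries, and it was called higher or lower when the ratio of mutant to control was at least 1.5-fold either way. With 1 mouse per genotype no test is possible. Where a pair of values is given, the control comes first. Every ratio compares 2 libraries, and the 95% intervals beside ratios, levels and shares cover counting error alone. The libraries shared 139 cell barcodes. Memo1 itself was at 20.3 CPM in control and 17.7 CPM in mutant lineage cells (ratio 0.872, interval 0.771 to 0.987), and at 18 and 17.6 CPM outside it. The labels do not say which part of the gene is deleted, and 3′ counts from outside that part do not check the deletion.

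Within each library the members divided the tooth into very different zones. In the control lineage, 9 of the 14 enzymes were at their highest level in cluster 0, and 9 were at their lowest in the secretory ameloblast-like cluster 3. Aldoa, which splits fructose bisphosphate, was at 1551 CPM in cluster 0 and 121 CPM in cluster 3 of the control, and at 917 and 151 CPM in the mutant. Tpi1, the triose phosphate isomerase, ran from 718 CPM in cluster 0 to 38.5 CPM in cluster 3 of the control, and from 359 to 36.2 CPM in the mutant. Gapdh, which makes the first NADH of the pathway, ran from 2780 to 313 CPM and from 1826 to 349 CPM in the same clusters. The 14 enzymes together took 9556 CPM of control cluster 0 and 1716 CPM of control cluster 3. Per cell the order was the reverse, with 17.0 enzyme counts in control cluster 0 and 59.1 in control cluster 3. The median depths of these cells were 1092 and 35309 counts. The 56 nuclear genes of the respiratory chain were arranged like the enzymes, at 62003 CPM in control cluster 0 and 14629 CPM in control cluster 3. Amelx, the amelogenin gene, took 41.3% of the counts of control cluster 3, so that all other genes there share a smaller total. With the genes above 1% of a cluster's counts left out of the total, the enzymes summed to 3386 CPM in control cluster 3 and 10857 CPM in control cluster 0.

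**Figure D1:**
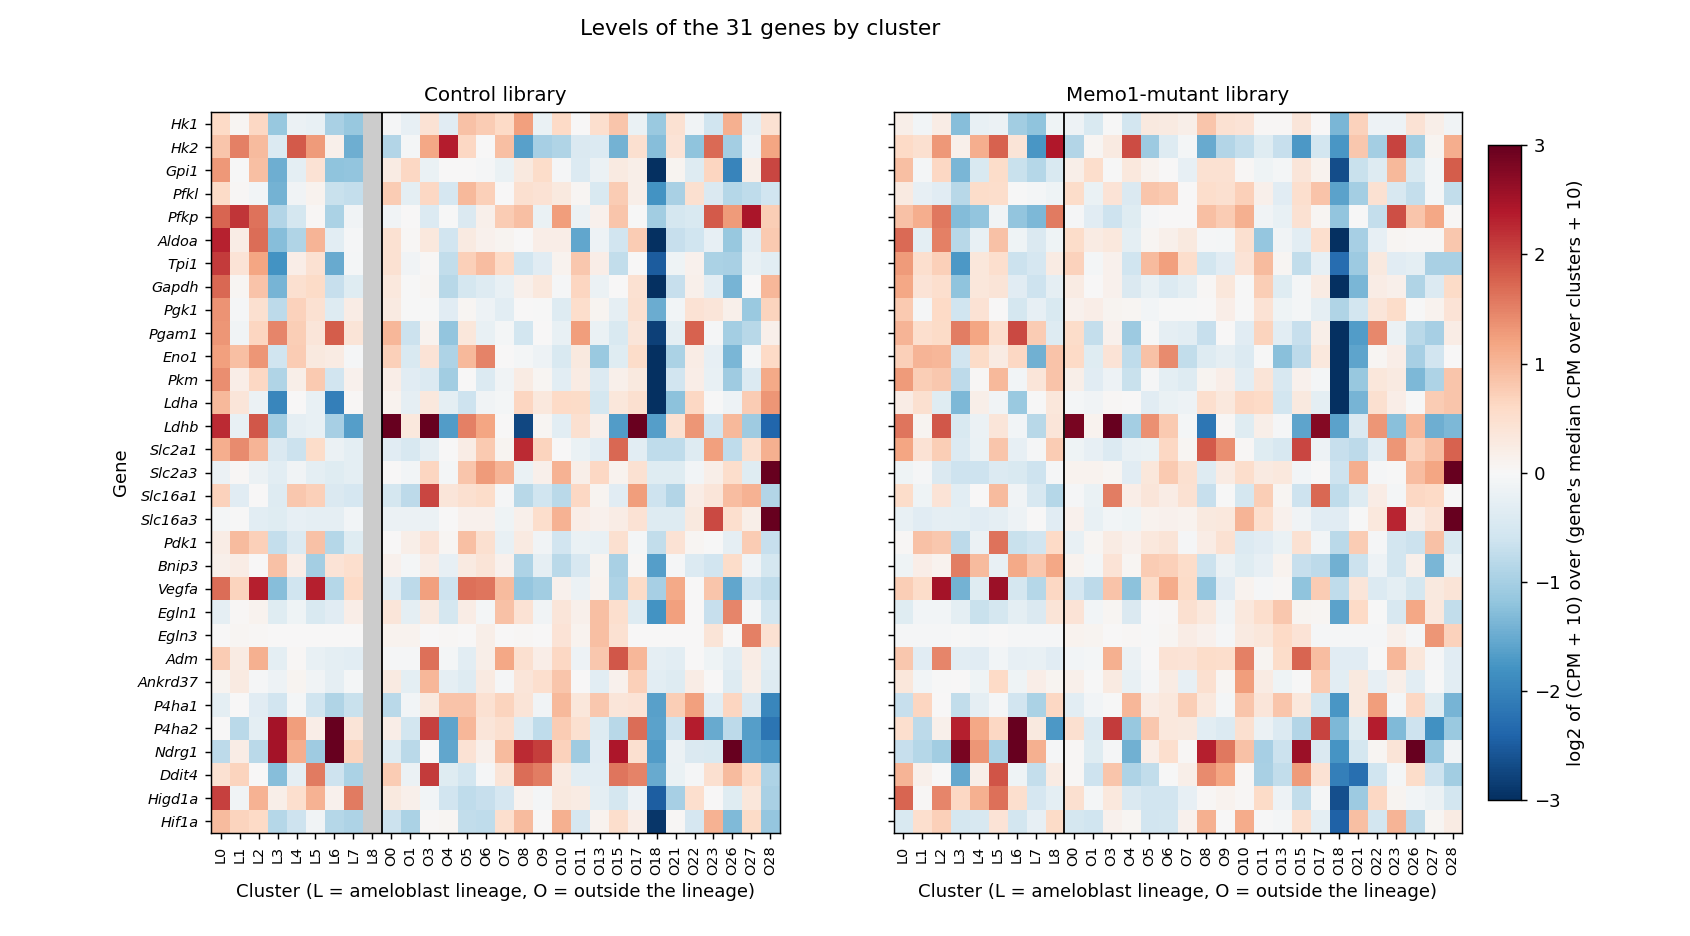
Level of the 31 genes in every cluster of the control (one panel) and the mutant (the other), as log2 of CPM plus 10 over the gene's median CPM over clusters plus 10, with lineage clusters marked L and the others O. Colours saturate at 3 either way, and cluster 8 has no control cells. Most glycolytic enzymes are high in lineage cluster 0, while Pgam1, P4ha2 and Ndrg1 are high in lineage clusters 6 and 3.

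Other members were arranged the opposite way. Pgam1, the phosphoglycerate mutase, was at its highest lineage level in cluster 6, with 782 CPM in control and 900 CPM in mutant cells, followed by cluster 3 with 615 and 653 CPM, and it was at 201 and 314 CPM in cluster 1. P4ha2, a catalytic subunit of the enzyme that hydroxylates prolines in collagen, was at 425 and 358 CPM in cluster 6 and at 16.5 and 14.8 CPM in cluster 1. Ndrg1, a stress-responsive gene of differentiating cells, was at 421 CPM in cluster 6 of both libraries, at 246 and 332 CPM in cluster 3, and at 15.7 and 13 CPM in cluster 2. So these 3 members had their highest lineage levels in clusters 6 and 3, and 23.6% (control) and 18% (mutant) of the cluster 6 counts were Amelx. Bnip3, a mitochondrial outer membrane protein that drives removal of mitochondria, was likewise highest in cluster 3, at 55.3 CPM in control and 81.9 CPM in mutant cells. Vegfa, the growth factor for vessels, had the reverse arrangement. It was at 138 and 190 CPM in cluster 5 and 137 and 180 CPM in cluster 2, but at 2.08 and 2.62 CPM in cluster 3.

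Of the transporters, Slc2a3, Slc16a3 and Slc16a1 were lower in the lineage than outside it in both libraries. Slc2a1 was slightly higher in the lineage than outside it in the control, and lower in the mutant. Slc2a1, the common glucose carrier, was at 35.8 CPM in control cluster 1 and 26.3 CPM in control cluster 0, and its highest levels lay in the endothelium-like clusters 8 and 15 outside the lineage, at 70.9 and 46.5 CPM in the control and 51.1 and 59.2 CPM in the mutant. Slc2a3, the high-affinity glucose carrier, was at 1.11 CPM in the lineage of both libraries and at 176 and 158 CPM in the neutrophil-like cluster 28, which had too few cells to compare. Slc16a3, which exports lactate, was at 1.15 CPM in control and 0.578 CPM in mutant lineage cells, and at 463 and 479 CPM in cluster 28. Slc16a1, the lactate carrier of many tissues, was at 64.2 and 48.0 CPM in cluster 3 outside the lineage, which was led by Fmod and Tnc, and at 8.30 and 10.7 CPM in the lineage. Slc2a3, Slc16a3, the HIF prolyl hydroxylase Egln3 (3 counts in the control lineage and 2 in the mutant) and the HIF target Ankrd37 (2.79 and 3.05 CPM) reached the measuring threshold in 0 lineage clusters.

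The order of the clusters was similar in both mice for most members. Over the 26 clusters with at least 50 cells in each library, Spearman's rho between control and mutant levels had a median of 0.83 over the 31 genes, from 0.35 for Ankrd37 to 0.94 for P4ha2. These coefficients are descriptions, since the points share the 2 libraries and their depth. Cluster 8, present in the mutant alone, had Hk2, the inducible hexokinase, at 198 CPM, the highest Hk2 level of any cluster in that library. It had P4ha2 at 3.02 CPM, Pgam1 at 166 CPM and Hif1a, the oxygen-regulated HIF subunit, at 120 CPM. No ratio can be formed for cluster 8.

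Over the whole lineage the enzymes were mostly lower in the mutant library and the hypoxia-responsive genes were mixed. Of the 31 members 25 were measured, 3 were called higher and 4 lower. Among all 7661 genes measured there, 4.14% were called higher and 4.96% lower. The members' median log2 ratio was -0.18, against -0.04 over all genes. Of the 14 enzymes 11 had a ratio below 1 and 3 of them were called lower, and 0 were called higher. Of all 7661 genes 4305 lay below 1. Nuclear genes of the respiratory chain lay below 1 in 55 of 56 cases, with a median log2 ratio of -0.33, against -0.38 for the enzymes. Of the 10 measured hypoxia-responsive genes 3 were called higher and 0 lower. The 4 lower members were Pgk1 at 24.9 CPM in control and 9.86 CPM in mutant cells, Pfkp at 31.5 and 15.1 CPM, Tpi1 at 206 and 123 CPM, and Slc2a1 at 15.7 and 9.45 CPM. Pgk1, the kinase that makes the first ATP of the pathway, was 2.52-fold lower (2.18 to 2.93). The platelet-type phosphofructokinase Pfkp was 2.09-fold lower (1.85 to 2.36). The 3 higher members were Ndrg1 (131 and 223 CPM, 1.70-fold, 1.63 to 1.77), Bnip3 (34.4 and 55.7 CPM, 1.62-fold, 1.5 to 1.76) and Ddit4, a stress-induced inhibitor of the growth kinase mTORC1 (35.4 and 55.2 CPM, 1.56-fold, 1.44 to 1.69). When each cell was thinned at random to 1000 counts and shallower cells were left out, which weights cells equally and leaves fewer counts, Slc2a1 had a ratio of 1.06.

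The remaining measured members differed by less than 1.5-fold over the whole lineage. Aldoa was at 494 CPM in control and 335 CPM in mutant cells, Gpi1, the phosphoglucose isomerase, at 165 and 112 CPM, and Gapdh at 963 and 720 CPM. Eno1, the main enolase, was at 419 and 319 CPM, Ldha at 187 and 146 CPM, and Pkm, the pyruvate kinase, at 468 and 416 CPM. These 6 enzymes thus lay on the lower side without a call. Hk1 (15.1 and 12.8 CPM) and Pfkl (29.4 and 25.8 CPM), the housekeeping hexokinase and the liver-type phosphofructokinase, had ratios of 0.844 and 0.875. Hk2 (53.2 and 58.9 CPM), Ldhb (304 and 306 CPM) and Pgam1 (440 and 572 CPM) were the enzymes with ratios above 1. Among hypoxia-responsive genes, P4ha2 was at 135 and 167 CPM, P4ha1, the other catalytic isoform, at 18.8 and 20.3 CPM, and Higd1a, a protein of the mitochondrial inner membrane, at 158 and 172 CPM. Vegfa was at 55.7 and 51.2 CPM. The oxygen sensor Egln1 was at 37.7 and 37.4 CPM, and Hif1a at 80.4 and 71.1 CPM. Pdk1, which closes the entry of pyruvate into mitochondria, was at 16.9 and 14.9 CPM. Adm, the vessel-active peptide adrenomedullin, was below the threshold at 4.55 and 3.88 CPM.

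A whole-lineage ratio also moves with the share of counts that each cluster contributes. Cluster 3 gave 7682145 of the 32299685 lineage counts in the control and 9155912 of 24230793 in the mutant. Cluster 1 held 495 control and 75 mutant cells. Ndrg1, highest in clusters 6 and 3, was 1.70-fold higher over the lineage but reached 1.5-fold higher in 0 of its 8 clusters, where its ratios ran from 0.382 to 1.44. Pfkp, whose highest control lineage level (84.3 CPM) was in cluster 1, was lower within that cluster too, at 44.4 CPM in the mutant (1.90-fold, 1.29 to 2.91). In the 4 lineage clusters where Pfkp was measured, 2 ratios lay above 1 and 2 below, from 0.526 to 1.17. The comparisons that follow are within clusters.

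**Figure D2:**
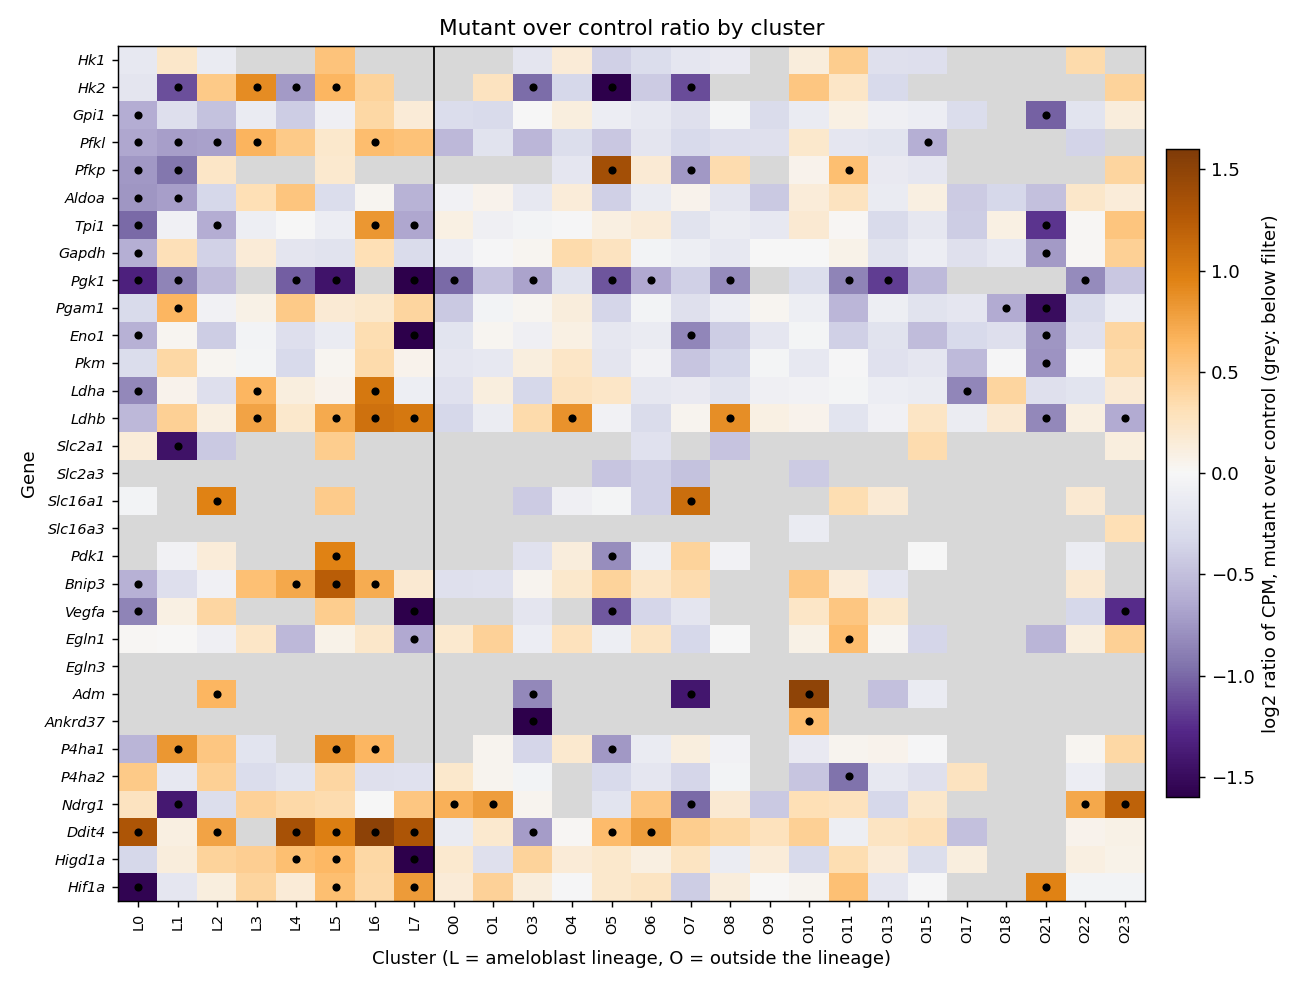
Log2 ratio of mutant to control CPM for each gene (vertical axis) in the 26 compared clusters (horizontal axis, L for lineage and O for outside). Dots mark ratios of at least 1.5-fold, grey marks values below the measuring threshold, and colours saturate at 1.6 either way. Pgk1 is below 1 in all 20 clusters where it was measured, and lineage cluster 0 holds 12 lower calls.

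Pgk1 had the same direction in every cluster where it was measured. It lay below 1 in 20 of 20 measured clusters and was called lower in 13 of them, 5 in the lineage and 8 outside. Its lineage ratios ran from 0.321 to 0.697 and those outside from 0.440 to 0.861. In cluster 0 it was at 70.5 CPM in control and 28.1 CPM in mutant cells (2.51-fold lower, 1.72 to 3.74). In cluster 5 it was at 33.2 and 12.4 CPM (2.69-fold lower, 1.82 to 4.07). In cluster 7 it rested on 62 and 10 counts (26.8 and 8.60 CPM, 3.11-fold lower, 1.58 to 6.81), and the ratio there lay above 1 in thinned cells, at 1.51. Over all cells outside the lineage Pgk1 was at 21.1 and 12.4 CPM (1.70-fold lower, 1.56 to 1.85). Without the measuring threshold it lay below 1 in 25 of 26 clusters. The exception was the erythroid cluster 18, with 3 counts in each library. Pgk1 lies on chromosome X (chrX:106187100-106203699, plus strand, GRCm38) and has a processed copy, Pgk1-rs7, on chromosome 12. Adding the counts of the copy left the lineage at 25.3 and 9.99 CPM.

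Ddit4 was the member most often higher within the lineage. It was measured in 7 of the 8 compared clusters, had a ratio above 1 in 7 and was called higher in 6. In cluster 6 it was at 16.0 CPM in control and 45.3 CPM in mutant cells (2.83-fold, 2.14 to 3.80). In cluster 4 it was at 23.0 and 58.6 CPM (2.55-fold, 1.53 to 4.36). In clusters 0 and 7 it was 2.47-fold higher, at 45.2 and 112 CPM and at 10.8 and 26.7 CPM. Its highest lineage level was in cluster 5, at 108 and 212 CPM (1.97-fold, 1.73 to 2.24). In cluster 1 its ratio was 1.08, and 0.904 without the cell holding the most of its counts in each library. Ddit4 also responds to other stresses, and 16 immediate early and dissociation-response genes were read beside it. Their summed level was 1256 and 2070 CPM in cluster 0 (12 of 15 measured genes higher), 750 and 1307 CPM in cluster 5 (11 of 15 higher), 654 and 892 CPM in cluster 6 (6 of 12 higher) and 890 and 1020 CPM in cluster 4 (3 of 8 higher). In cluster 1 it was 5704 and 899 CPM (16 of 16 lower), and 4 of the 8 measured in cluster 7 were lower and 0 higher. In cluster 2, where Ddit4 was called higher, 2 of 15 early genes were higher and 2 lower. Over the whole lineage 9 of 16 were lower and 0 higher. Their part in the Ddit4 ratios was not tested. Outside the lineage Ddit4 was called higher in cluster 6, in cluster 5 with an interval that spans 1, and lower in cluster 3, where it was at 161 and 98.5 CPM (1.64-fold lower, 1.51 to 1.77) and the early genes summed to 8593 and 3358 CPM (14 of 16 lower).

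**Figure D3:**
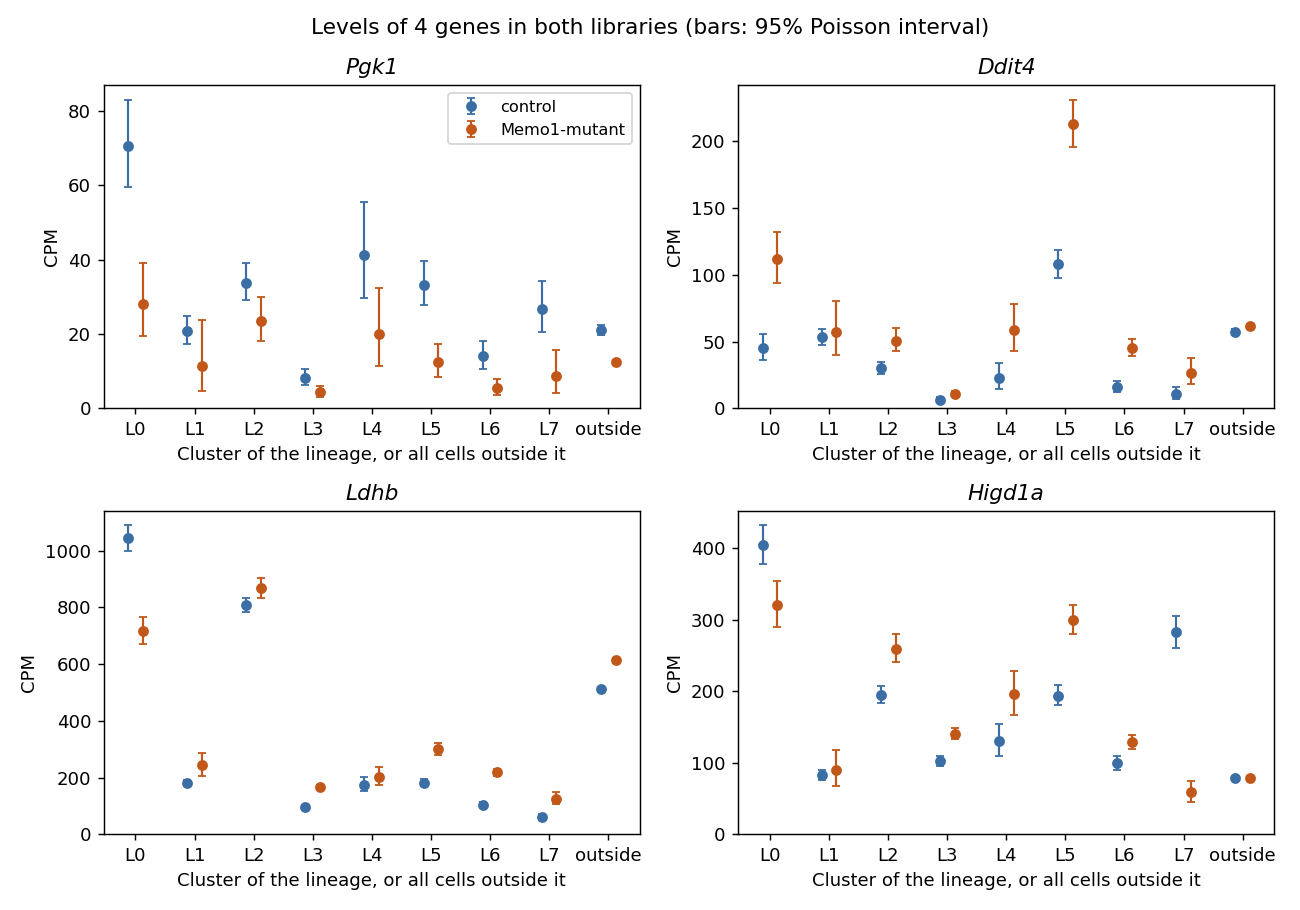
CPM of Pgk1, Ddit4, Ldhb and Higd1a in lineage clusters 0 to 7 and outside the lineage, for the control and the mutant, with exact 95% Poisson intervals that cover counting error. Pgk1 is lower in the mutant in each lineage cluster, Ddit4 is at 112 CPM against 45.2 CPM in cluster 0, and Higd1a is at 58.5 CPM against 282 CPM in cluster 7.

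Lineage cluster 0 held the most lower calls among the members. Of 25 measured members 12 were called lower and 1, Ddit4, higher. Among all genes of this cluster 9.14% were called lower and 11.3% higher. The members' median log2 ratio was -0.56, against 0.02 over all genes. All 14 enzymes lay below 1 and 9 were called lower, while of all 6159 genes measured there 2959 lay below 1. Tpi1 was at 718 CPM in control and 359 CPM in mutant cells (2.00-fold lower, 1.80 to 2.23). Ldha, the lactate dehydrogenase that favours lactate, was at 470 and 263 CPM (1.79-fold lower, 1.57 to 2.03), and Aldoa was 1.69-fold lower (1.58 to 1.81). Gapdh was 1.52-fold lower (1.45 to 1.6) and Eno1, at 664 and 440 CPM, was 1.51-fold lower (1.36 to 1.67). Hif1a had the largest fold among these members, at 159 and 53.9 CPM (2.95-fold lower, 2.26 to 3.90). The other lower calls, given here to complete the count, were Gpi1, Pfkl, Pfkp, Bnip3 and the vessel factor Vegfa, between 1.51- and 1.80-fold lower, and the Bnip3 interval (0.928 to 2.54) spanned 1. Slc2a1 and Egln1 had ratios of 1.10 and 1.02.

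Mitochondrial genes moved with the enzymes in cluster 0. Of 56 nuclear genes of the respiratory chain 18 were called lower and 0 higher. Among them were Ndufs1, a complex I subunit, at 125 and 56.3 CPM, and Uqcrfs1, the iron-sulfur protein of complex III, at 468 and 247 CPM. Of 12 genes for pyruvate entry into mitochondria 4 were lower, among them Dld and Dlat, subunits of the pyruvate dehydrogenase complex, at 134 and 63.5 CPM and at 105 and 58.7 CPM. Of 21 other hypoxia-responsive genes 5 were higher and 6 lower. Tfrc, the transferrin receptor, was at 474 and 122 CPM, while Plin2, a lipid droplet protein, was at 22.9 and 60.3 CPM and the haem-degrading Hmox1 at 45.2 and 98.1 CPM. Of 7 measured HIF regulators Epas1, the other oxygen-regulated HIF subunit, and the coactivator Ep300 were lower, at 84.1 and 51.4 CPM and at 29.7 and 19.3 CPM. Cells of cluster 0 were shallow, with a median of 1092 counts in the control and 898 in the mutant. Macrophage markers summed to 633 and 1293 CPM (9 of 9 measured higher), fibroblast markers to 397 and 862 CPM (4 of 7 higher and 1 lower) and haemoglobin genes to 15846 and 6268 CPM (4 of 4 lower). Their part in these ratios was not tested. In thinned cells 7 of 16 measured members were lower, against 10.0% of all genes. Without the 5% of cells with the most counts 6 of 23 were lower, against 7.7%. With stricter cell limits 12 of 18 were lower, against 13.5%, and with trimmed-mean factors 14 of 25, against 12.5%.

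The maturation ameloblast-like cluster 7 (187 control and 78 mutant cells) had the largest called folds of any lineage cluster. Of 19 measured members 6 were called lower and 3 higher. Among all genes 19.8% were called lower and 12.3% higher. Higd1a was at 282 CPM in control and 58.5 CPM in mutant cells (4.83-fold lower, 3.76 to 6.29). In cluster 5, by contrast, Higd1a was 1.55-fold higher. Vegfa was at 34.5 and 8.60 CPM (4.02-fold lower, 2.07 to 8.70), from 80 and 10 counts, and Eno1 at 272 and 90.3 CPM (3.02-fold lower, 2.45 to 3.75). Tpi1 was at 153 and 97.2 CPM (1.57-fold lower, 1.27 to 1.96). Egln1, named to complete the count, was at 51.0 and 32.7 CPM (1.56-fold lower, 1.07 to 2.31). Pfkp had 23 counts in the control and 0 in the mutant, 3.85-fold lower with the mutant set at the floor of 3 counts, and was below the measuring threshold. Hif1a was on the other side, at 36.3 and 63.6 CPM (1.75-fold higher, 1.27 to 2.43). Ldhb was at 61.3 and 126 CPM (2.05-fold higher, 1.61 to 2.60), but 1 mutant cell held 37.7% of its counts and the ratio was 1.37 without the cell with the most counts in each library. In thinned cells of cluster 7 Hif1a had a ratio of 0.420, Pgk1 1.51 and Vegfa 0.839.

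Other genes of cluster 7 moved widely as well. Bsg, the chaperone of the lactate carriers, was at 800 and 360 CPM, and the malic enzymes Me1 and Me2 were at 102 and 54.2 CPM and at 35.4 and 12 CPM. Of 56 respiratory chain genes 4 were lower and 0 higher, among them Ndufa1 at 430 and 199 CPM. Of 17 other hypoxia-responsive genes 6 were lower and 2 higher. Plod2, a lysyl hydroxylase of collagen, was at 97.6 and 34.4 CPM and Car12, a membrane carbonic anhydrase, at 290 and 511 CPM. The markers that define the cluster moved too: 8 of 8 maturation markers were lower, with a summed level of 38232 and 6097 CPM, and Amelx took 17.2% of control and 26.9% of mutant counts. Their part in the members' ratios was not tested.

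**Figure D4:**
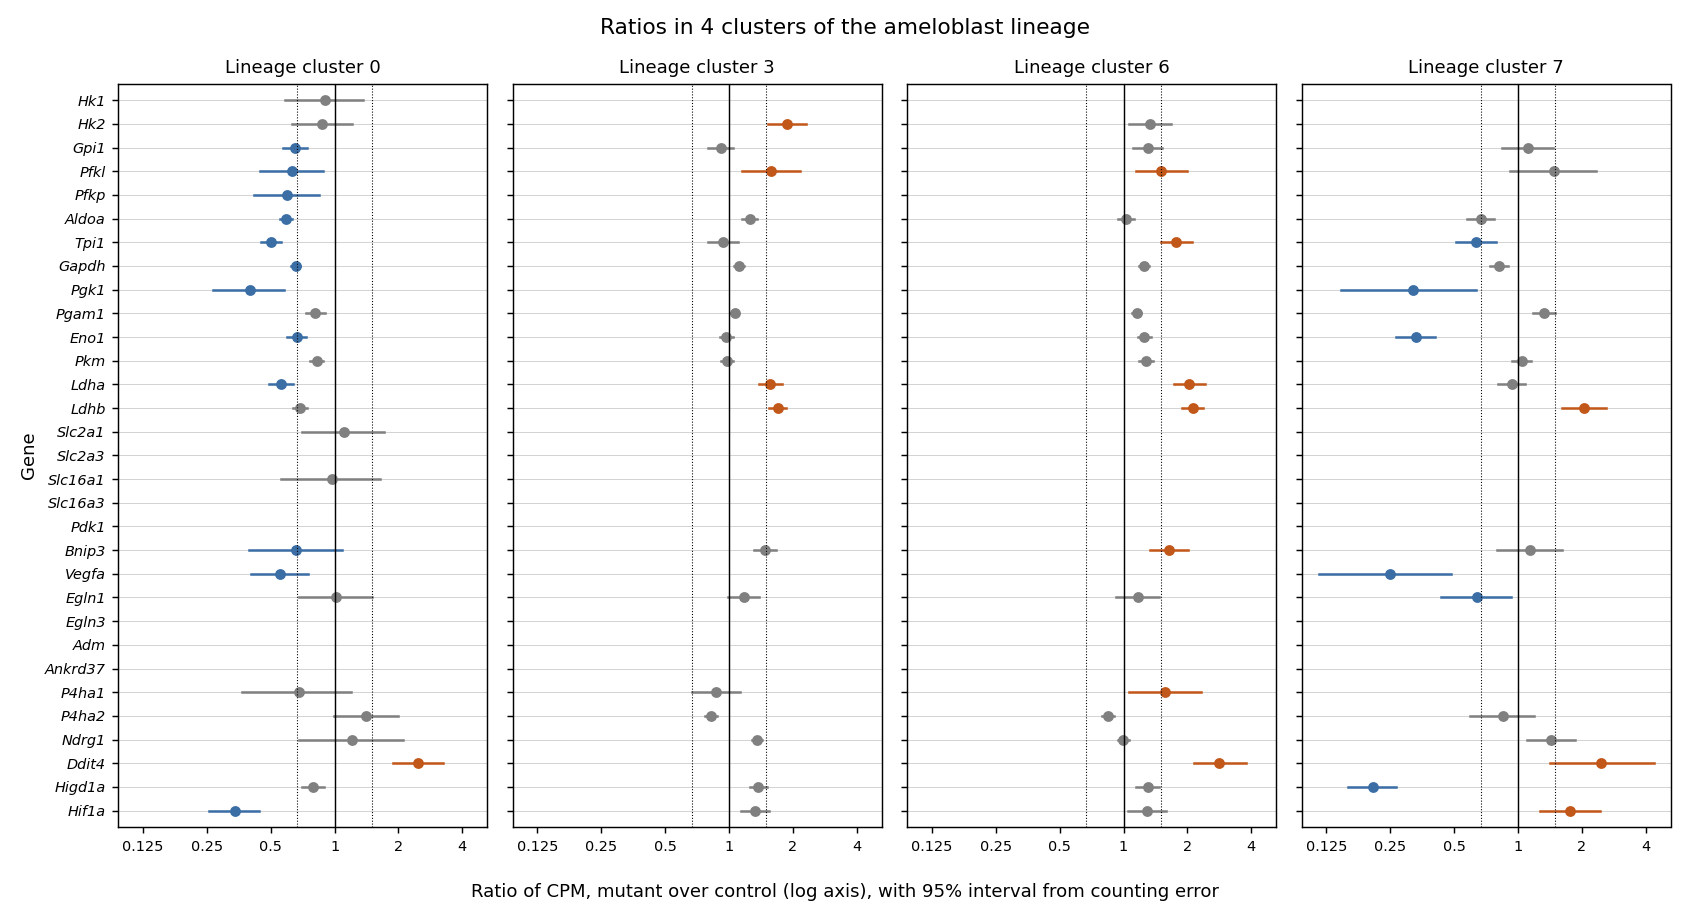
Ratio of mutant to control CPM on a log axis with exact 95% intervals, for the members measured in lineage clusters 0, 3, 6 and 7. Blue marks at least 1.5-fold lower, orange at least 1.5-fold higher, grey neither, and dotted lines mark 1.5-fold. Cluster 0 has 12 lower calls, clusters 3 and 6 have 0, and cluster 7 has 6.

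In clusters 3 and 6 each enzyme that was called was higher. In cluster 7, where Amelx also took a large share of the counts, 3 enzymes were called lower and 1 higher. The enzymes' median log2 ratio was 0.16 in cluster 3, where 7 of 11 lay above 1 and 4 below, against 0.12 over all genes. In cluster 6 it was 0.38, with 11 of 11 above 1, against 0.18. Of all genes 3780 of 5745 lay above 1 in cluster 3 and 4679 of 6555 in cluster 6. In the secretory ameloblast-like cluster 3 (223 control and 286 mutant cells) 4 of 18 measured members were called higher and 0 lower, against 7.8% and 2.85% of all genes. All 4 were enzymes. Hk2 was at 18.1 CPM in control and 33.7 CPM in mutant cells (1.87-fold, 1.52 to 2.30), Ldhb at 97.5 and 165 CPM (1.69-fold, 1.55 to 1.85), Pfkl at 8.20 and 12.9 CPM (1.57-fold, 1.15 to 2.17), and Ldha at 53.0 and 82.9 CPM (1.56-fold, 1.39 to 1.77). Bnip3, at 55.3 and 81.9 CPM, fell just short of a call at 1.48-fold (1.31 to 1.67). P4ha2 had a ratio of 0.819. Me1, the cytosolic malic enzyme, was at 4.82 and 15.9 CPM and the collagen cross-linking enzyme Loxl2 at 22.0 and 60.6 CPM, while Cox4i2, the hypoxic subunit of cytochrome oxidase, was at 88.0 and 31.8 CPM. Early response genes summed to 674 and 1072 CPM in cluster 3, with 8 of 12 measured higher, and their part in these ratios was not tested. In thinned cells the Pfkl ratio was 0.780.

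In cluster 6, led by Fxyd4, Fxyd3, Dspp and Cyp26a1, 7 of 19 measured members were called higher and 0 lower, against 12.4% and 2% of all genes. All 11 measured enzymes had ratios above 1 and 4 were called. Ldhb was at 103 CPM in control and 218 CPM in mutant cells (2.12-fold, 1.89 to 2.38), Ldha at 48.9 and 99.6 CPM (2.04-fold, 1.72 to 2.41), Tpi1 at 49.4 and 87.6 CPM (1.77-fold, 1.5 to 2.11) and Pfkl at 20.4 and 30.8 CPM (1.51-fold, 1.15 to 2.00). Bnip3 was at 36.9 and 60.3 CPM (1.64-fold, 1.34 to 2.01) and P4ha1 at 10.6 and 16.5 CPM (1.56-fold, 1.07 to 2.32). So Tpi1, Ldha and Pfkl were called in opposite directions in clusters 6 and 0. Ndrg1, at its highest lineage level here, had a ratio of 1.00 (0.937 to 1.07). The median log2 ratio of all genes was 0.18 in cluster 6 and 0.12 in cluster 3, against 0.38 and 0.27 for the members. When trimmed-mean factors brought the all-gene medians to -0.06 and -0.02, the calls became 4 higher and 1 lower in cluster 6 and 2 higher and 0 lower in cluster 3. Pgam2, the muscle-type mutase, was at 5.41 and 48.4 CPM in cluster 6. Fibroblast markers there summed to 51.9 and 542 CPM (5 of 5 measured higher, with Col14a1 at 0 in both libraries) and pulp markers to 96.1 and 489 CPM (5 of 5 higher), while haemoglobin genes summed to 2316 and 173 CPM. Their part was not tested.

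In the stratum intermedium- or papillary-like cluster 5 (211 control and 174 mutant cells) it was the hypoxia-responsive genes that were higher. Of 26 measured members 8 were called higher and 1, Pgk1, lower, against 16.4% and 2.12% of all genes. All 10 measured hypoxia-responsive genes had ratios above 1 and 6 were called, while 2 of the 14 enzymes were called higher. Of all 8132 genes measured there 5791 lay above 1. Bnip3 was at 7.33 CPM in control and 17.2 CPM in mutant cells (2.35-fold, 1.44 to 3.91), and Pdk1 at 30.6 and 59.6 CPM (1.95-fold, 1.52 to 2.49). P4ha1 was at 15.7 and 28.5 CPM (1.81-fold, 1.28 to 2.59) and Higd1a at 194 and 300 CPM (1.55-fold, 1.4 to 1.71). Hif1a, named to complete the count with Ddit4, was at 70.7 and 106 CPM (1.5-fold, 1.27 to 1.78). Of the enzymes, Ldhb was at 182 and 300 CPM (1.64-fold, 1.48 to 1.82) and Hk2 at 79.8 and 124 CPM (1.56-fold, 1.33 to 1.83). Vegfa, at its highest level of all clusters, had a ratio of 1.38 (1.22 to 1.56). Of 28 other hypoxia-responsive genes 5 were higher and 0 lower, among them Plod2 at 17.5 and 40.1 CPM and the nuclear receptor Rora at 8.38 and 23.6 CPM. The all-gene median was 0.22 in this cluster, against 0.37 for the members. With trimmed-mean factors it moved to -0.04, and 4 members were higher and 1 lower. In thinned cells 12 members were measured, 2 were higher and 0 lower, and their median was -0.04 against 0.04 over all genes. In thinned cells the Bnip3 ratio was 0.243 in cluster 5, 0.820 in cluster 4 and 0.965 in cluster 6. Early response genes were higher in cluster 5 as given with Ddit4, and their part was not tested.

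Cluster 4, preameloblast-like, had 3 members higher and 2 lower of 19 measured, against 4.59% and 7.98% of all genes. Median depth there was 1996 counts in control and 1028 in mutant cells, with 27.3% and 48.4% of cells under 1000 counts. Beside Ddit4 the higher members were Bnip3 at 30.7 CPM in control and 51.1 CPM in mutant cells (1.67-fold, 1.02 to 2.74) and Higd1a at 130 and 196 CPM (1.5-fold, 1.19 to 1.90). Hk2, which had its highest control lineage level here, was at 122 and 73.5 CPM (1.65-fold lower, 1.21 to 2.29), and Pgk1 at 41.2 and 19.9 CPM (2.07-fold lower, 1.14 to 3.93). Haemoglobin genes took 299 CPM of the control and 23098 CPM of the mutant in cluster 4, and their part was not tested. In cluster 2, led by Igfbp2 and Krt15, 3 of 27 measured members were higher and 2 lower, against 14.3% and 4.66% of all genes. Slc16a1 was at 8.40 and 16.3 CPM (1.94-fold, 1.26 to 2.99), Ddit4 at 29.9 and 50.7 CPM (1.69-fold, 1.34 to 2.14) and Adm at 16.1 and 25.0 CPM (1.56-fold, 1.12 to 2.16). Pfkl and Tpi1 were 1.62-fold (1.21 to 2.19) and 1.54-fold lower (1.41 to 1.68). The all-gene median of cluster 2 moved from 0.15 to -0.06 with trimmed-mean factors, and the calls became 1 higher and 6 lower. In thinned cells Slc16a1 was at a ratio of 0.447 and Adm at 0.813. Haemoglobin genes of cluster 2 summed to 1308 and 5493 CPM, and their part was not tested.

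In cluster 1, outer enamel epithelium- or stellate reticulum-like, 2 of 25 measured members were higher and 7 lower, against 13.6% and 11.2% of all genes. The mutant side held 75 cells. Slc2a1 was at 35.8 CPM in control and 13.1 CPM in mutant cells (2.72-fold lower, 1.36 to 6.39), Hk2 at 95.8 and 44.4 CPM (2.16-fold, 1.47 to 3.31), and Pfkl at 40.3 and 24.6 CPM (1.63-fold, 0.971 to 2.97, an interval that spans 1). Hk1 had a ratio of 1.17, from 19.7 and 23 CPM. Of 9 other glycolysis genes measured 4 were higher and 0 lower, among them the glucose carrier Slc2a8 at 12 and 24.6 CPM (2.05-fold, 1.09 to 3.62). Aldoa was at 362 and 222 CPM (1.63-fold lower, 1.37 to 1.96) and Ndrg1 at 43.0 and 16.4 CPM (2.62-fold lower, 1.4 to 5.53). Pgam1 was at 201 and 314 CPM (1.56-fold higher, 1.33 to 1.82) and P4ha1 at 28.6 and 50.9 CPM (1.78-fold higher, 1.17 to 2.62). All 16 early response genes were lower in this cluster, as given with Ddit4, and their part in these ratios was not tested. In thinned cells of cluster 1 the ratios of Slc2a1 and Pfkl were 1.30 and 1.70, and that of Pgam1 was 0.556.

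Isoenzyme shares, which do not depend on the library total, were compared between clusters and libraries. They are shares of transcript counts, do not measure protein or activity, and do not compare the genes of a pair with each other. Ldha made up 79.6% of the Ldha and Ldhb counts in control cluster 7 (exact interval 76.4 to 82.6) and 64.0% in the mutant (59.2 to 68.7), the mutant share resting in part on the Ldhb-rich cell. In cluster 5 the Ldha share was 52.3% in the control and 41.0% in the mutant, and in cluster 1 it was 62.8% and 56.6%. In clusters 3 and 6, where both genes were higher in the mutant, the share stood at 35.2% and 33.4% and at 32.3% and 31.4%. Over the lineage it was 38.1% (37.4 to 38.9) and 32.4% (31.5 to 33.3). The phosphofructokinase share differed between clusters. Pfkl made up 84.0% of the Pfkl and Pfkp counts in control cluster 3, 88.1% in cluster 4, 78.4% in cluster 5 and 95.4% in cluster 6, but 32.3% in cluster 1 and 38.7% in cluster 2. In cluster 7 it was 66.7% (54.3 to 77.6) in the control, from 46 Pfkl and 23 Pfkp counts, and 100% (89.7 to 100) in the mutant, from 34 and 0 counts. In cluster 2 it was 25.0% in the mutant.

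The hexokinase and prolyl hydroxylase pairs were as uneven. Hk1 made up 22.1% of the hexokinase counts of the control lineage and 17.8% of the mutant lineage, with 35.3% and 26.2% in cluster 2. P4ha1 made up 5.9% and 6.2% of the P4ha1 and P4ha2 counts in cluster 3 and 2.4% (1.8 to 3.3) and 4.4% (3.5 to 5.5) in cluster 6, against 63.5% and 77.5% in cluster 1 and 94.3% in the mutant-only cluster 8. Egln1 held 99.8% of the Egln1 and Egln3 counts of the lineage in both libraries. Slc2a1 held 93.4% and 89.5% of the Slc2a1 and Slc2a3 counts of the lineage, but 64.3% and 62.6% outside it. Each share covers the 2 genes of its pair only.

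**Figure D5:**
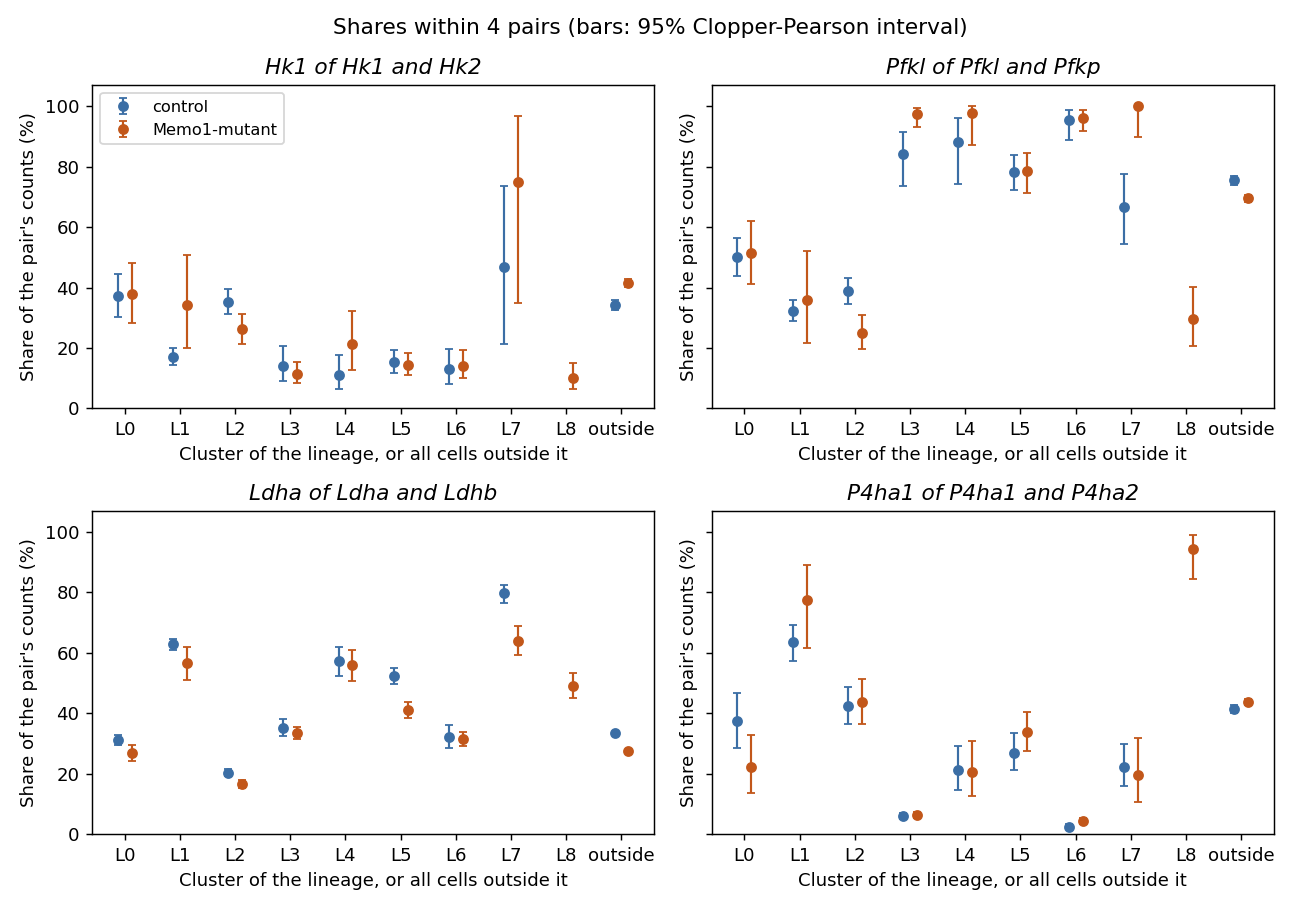
Share of the first gene of each isoenzyme pair in the pair's counts, in percent, by lineage cluster and outside the lineage, for the control and the mutant, with exact Clopper-Pearson 95% intervals. The Ldha share in cluster 7 is 79.6% in the control and 64.0% in the mutant, and P4ha1 is 94.3% of its pair in the mutant-only cluster 8.

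Over the 18 compared clusters outside the lineage, 376 gene and cluster pairs of the members were measured, 15 were called higher and 34 lower, against 6.66% and 4.5% of 115079 pairs over all genes. Of the 34 lower pairs 8 were Pgk1. In cluster 3, led by Fmod, Ifitm1 and Tnc, 5 of 26 measured members were called lower and 0 higher, against 3.99% of all genes lower. In this cluster 14 of 16 early response genes were lower, as given with Ddit4, and their part was not tested. Ankrd37 was at 16.1 CPM in control and 4.98 CPM in mutant cells (3.23-fold lower, 2.38 to 4.39), Hk2 at 73.0 and 36.9 CPM (1.98-fold, 1.75 to 2.24) and Adm at 29.5 and 16.5 CPM (1.78-fold, 1.47 to 2.16). In cluster 7, led by Sfrp2 and Mmp13, 5 of 27 measured members were lower and 1 higher, against 6.44% of all genes lower. Hk2 was 2.16-fold lower (1.62 to 2.85), Ndrg1 1.99-fold lower (1.55 to 2.53) and Eno1 1.80-fold lower (1.58 to 2.04), while early response genes summed to 7299 and 3574 CPM (14 of 16 lower), their part not tested. In cluster 21, led by Col1a1 and Cpa6, 7 of 11 measured members, all of them enzymes, were lower and 1 was higher, against 23.7% of all genes lower. Beside them 32 of 40 measured respiratory chain genes were lower and 7 of 11 early response genes higher, and genes above 1% of the counts held 21.1% of all counts in control cells and 32.8% in mutant cells. The part of these in the ratios was not tested. Pgam1 was 2.81-fold lower (1.63 to 4.94), Tpi1 2.33-fold (1.31 to 4.18) and Gpi1 2.05-fold (1.24 to 3.40), from 24 to 35 counts per library. With stricter limits on cells the Tpi1 ratio there was 1.01.

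Ldhb and Adm were called in both directions outside the lineage. Ldhb was at 59.6 CPM in control and 108 CPM in mutant cells in the macrophage-like cluster 4 (1.81-fold, 1.62 to 2.01), and at 23.6 and 43.5 CPM in the endothelium-like cluster 8 (1.84-fold, 1.46 to 2.34), where it was 0.915 in thinned cells. In cluster 23 Ldhb was at 139 and 90 CPM (1.55-fold lower, 1.18 to 2.03), but the ratio lay above 1, at 1.71, without the cell with the most counts in each library. Adm was called higher in 1 and lower in 2 of the 5 clusters where it was measured. It was at 9.24 and 26.0 CPM in the pericyte- or smooth muscle-like cluster 10 (2.82-fold, 1.69 to 5.0), from 17 and 115 counts. Ndrg1 was called higher in clusters 0, 1, 22 and 23, with the intervals of clusters 0 and 1 reaching below 1. In the odontoblast-like cluster 22 it was at 23.6 and 39.3 CPM (1.67-fold, 1.23 to 2.27), with a ratio of 1.07 without the 5% of cells with the most counts. Cluster 5 outside the lineage (92 control and 1352 mutant cells, led by Lypd1 and Scube1) had Vegfa at 82.7 and 39.5 CPM (2.09-fold lower, 1.56 to 2.76). Hk2 there was 5.64-fold lower (3.66 to 8.49), but 1.97-fold lower without the cell with the most counts in each library, and macrophage markers, a cell type rich in Hk2 here (179 and 143 CPM in macrophage-like cluster 4), summed to 840 and 209 CPM in cluster 5. Their part in the Hk2 ratio was not tested.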

How the data were processed

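The deposited matrix holds unique molecule counts per gene and cell, which the authors made with Cell Ranger on build mm10 and clustered with Seurat 3, per the submitters' processing notes. Cluster numbers and library of each cell came from the deposited cell table, and doublets were not called again. From these counts, sums per cluster and library were scaled to a total of 1000000 (CPM). Exact Poisson intervals (levels), exact conditional intervals (ratios) and Clopper-Pearson intervals (shares) were computed at 95% with scipy 1.17.1 and checked on simulated data. Trimmed-mean factors came from edgeR 4.0.16. Ratios were read in the 26 clusters with at least 50 cells in each library, 8 in the lineage and 18 outside. A gene with 0 counts in 1 library was set at a floor of 3 counts there. Counts of called members were recomputed under 7 other settings, given at the end. Named ratios were also recomputed without the cell with the most counts in each library and, for Pgk1, with the counts of Pgk1-rs7 added. The addition of Pgk1-rs7, and the removal of that cell outside the lineage, were chosen after seeing the data.

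The 31 members and the 8 lists of other genes (195 genes) were chosen with earlier results of these data known. Every member is named with its whole-lineage level. In a lineage cluster up to 8 called members are named, ordered by how far the nearer interval bound lies from 1, outside the lineage up to 5 a cluster and of each other list up to 3. Levels were named in the 2 highest and 2 lowest clusters. Clusters were named from marker lists. Of the near-identical copies of members, Pgk1-rs7 and Eno1b were checked, and other processed copies were not.

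With 1 library per genotype, genotype, animal, dissociation and library cannot be told apart.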

Additional observations from a re-analysis of the deposited data

Results flagged for a closer look

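In all, 6 members were called in opposite directions in different lineage clusters with counting intervals away from 1 on both sides, and the difference between clusters was not tested. The ratio of mutant to control for Hk2 was 1.865 in cluster 3 and 0.463 in cluster 1. Pfkl was at 1.572 in cluster 3 and 0.618 in cluster 2. Tpi1 was at 1.773 in cluster 6 and 0.50 in cluster 0, and Ldha at 2.036 in cluster 6 and 0.560 in cluster 0. Higd1a was at 1.547 in cluster 5 and 0.207 in cluster 7. Hif1a was at 1.755 in cluster 7 and 0.339 in cluster 0. In thinned cells the Pfkl ratio in cluster 3 and the Hif1a ratio in cluster 7 lay below 1, as given with those clusters. Bnip3 was also called both ways, but the interval of its lower call, in cluster 0, spanned 1.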

How the results depend on the processing

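No paired analysis was possible because each genotype had 1 library. Of 733 alternative values of the 104 named ratios, 631 moved by less than their interval, 81 moved further and 21, in 20 ratios, crossed 1. Thinning cells to 1000 counts left out 2793 control and 3000 mutant cells and gave 18 of the 21: Slc2a1 (lineage 1.06, cluster 1 1.30), Pgam1 (cluster 1 0.556), Pfkl (cluster 1 1.70, cluster 3 0.780), Slc16a1 (cluster 2 0.447), Adm (cluster 2 0.813), Bnip3 (cluster 4 0.820, cluster 5 0.243, cluster 6 0.965), Pgk1 (cluster 7 1.51), Hif1a (cluster 7 0.420) and, outside the lineage, Pdk1 (cluster 5 1.16), Slc16a1 (cluster 7 0.729), Ldhb (cluster 8 0.915), Ankrd37 (cluster 10 0.848), P4ha2 (cluster 11 1.33) and Ndrg1 (cluster 22 0.549). Outside the lineage Tpi1 in cluster 21 was at 1.01 with stricter cell limits, and Ldhb in cluster 23 at 1.42 without the top 5% of cells and 1.71 without the top cells.

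Of 140 counts of called members 47 changed by over 1.5 times. With trimmed-mean and with median-of-ratios factors alike, members higher numbered 1 in clusters 1 and 2. They numbered 2 in cluster 3 and 4 in clusters 5 and 6. Either gave 6 lower in cluster 2, and trimmed-mean factors gave 1 lower in cluster 6. With trimmed-mean factors 9.5%, 7.5%, 4.4%, 6.2% and 5.8% of all genes were higher in clusters 1, 2, 3, 5 and 6. Lower were 10.6% in cluster 2 and 6.2% in cluster 6. Without the measuring threshold, 2, 4, 5, 13 and 6 were higher in clusters 0, 1, 4, 6 and 7, and 2, 5, 2 and 1 lower in clusters 3, 4, 5 and 6, with 59 higher and 65 lower pairs outside. With stricter limits 5 were higher in cluster 2 and 1 lower in cluster 4. Thinned, 7, 1, 1, 0, 0 and 1 were lower in clusters 0, 1, 3, 4, 5 and 7. Higher were 0, 1, 1, 2, 0 and 1 in clusters 2 to 7, with 9 higher and 18 lower pairs outside. In thinned cells only 16, 12, 12, 9, 7, 12, 7 and 6 members were measured in clusters 0 to 7. Of all genes 10.0%, 17.6%, 6.8%, 5.0%, 4.7% and 24.9% were lower in thinned clusters 0, 1, 3, 4, 5 and 7. In thinned clusters 2 to 7 11.6%, 10.1%, 9.0%, 13.2%, 11.3% and 10.4% of all genes were higher. Without genes above 1% of counts 1 was lower in clusters 3 and 6, against 4.1% of all genes in each. Without the top 5% of cells 2 and 1 were higher in clusters 0 and 1, against 8.5% and 13.4% of all genes. Lower were 6, 0 and 1 in clusters 0, 2 and 4, against 7.7%, 4.8% and 8.8%. The causes were not tested.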
